A study of Salmo salar with 16 samples.

Results

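Cadherins are membrane proteins through which neighbouring cells hold on to each other, and 3 of their genes were followed here in the spleen of Atlantic salmon. They were LOC106587272 (B-cadherin-like), LOC106561988 (cadherin-11-like) and LOC106582912 (cadherin-4-like), 3 of the 79141 features counted in each fish, and all 3 were among the 28930 genes that passed the filter on low counts and were tested. The genes were chosen by results of these same fish: B-cadherin-like and cadherin-11-like were selected on SBM against FM, and cadherin-4-like was selected on ACJ against ICJ. For those contrasts the values are a description and no p-value is given. The lists of DEGs published with the study, made from the same fish, also hold B-cadherin-like for ICJ and for ACJ against FM and cadherin-11-like for ACJ against SBM, so the tests of those contrasts are not independent evidence.

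The data were counts of RNA fragments per gene in the spleens of 16 juvenile salmon after 37 days on 1 of 4 diets, with 4 fish per diet. The ACJ diet held 40% soybean meal and 5% autolysed *Cyberlindnera jadinii* yeast, the ICJ diet 40% soybean meal and 5% of the same yeast killed by heat, the SBM diet 40% soybean meal without yeast, and the FM diet was the fishmeal control. The fish came from duplicated tanks, and since the tank of each fish is not in the labels, tank and diet cannot be told apart. Totals ran between 5032593 (an ACJ fish) and 9100203 (an SBM fish) counts, and the gene for the spleen mesenchyme factor TLX1 (LOC106606259) was at 286 to 464 CPM (counts scaled by TMM to libraries of one size) in all 16 libraries. By diet, TLX1 was at 326 to 464 CPM in ACJ fish and 332 to 394 in ICJ fish. In SBM fish it was at 390 to 428 CPM, against 286 to 361 in FM fish. The TLX1 gene stands in the DEG lists of the study. In spleen RNA, fewer cells of a type and less RNA per cell cannot be told apart.

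Classical cadherins bind the same kind of cadherin on the next cell through extracellular repeats that need calcium, and their cytoplasmic tails bind catenins, which connect the junction to actin. Type I cadherins such as cadherin-4, known as R-cadherin from work on the chicken retina, and B-cadherin, first described in chicken, generally hold cells more tightly than type II cadherins such as cadherin-11, which in mammals is typical of osteoblasts, fibroblasts and other mesenchymal cells. In the mammalian spleen such junctions join the endothelium of sinuses and vessels and the stromal cells that carry the blood cells. Salmonids went through an additional genome duplication, so many of their genes exist as pairs of copies.

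On the ICSASG_v2 genome, B-cadherin-like lies on the + strand of chromosome 26 (15163067 to 15179750) with 3456 exonic bases in 19 exon blocks. The RefSeq table of the later assembly Ssal_v3.1 lists it as a transcribed pseudogene, so whether its RNA gives a protein is not known from these data. Cadherin-11-like lies on the + strand of chromosome 11 (10963652 to 11041411) with 4314 exonic bases in 12 blocks. Cadherin-4-like spans chromosome 22 from 16685696 to 16928337 on the + strand, with 4650 exonic bases in 17 blocks. The last 2 are listed as protein coding. No other feature overlapped the span of any of the 3 among the 6 nearest on each side, and counting used strand. Fragments that matched several places were not counted, so any stretch shared with a near-identical copy is missing from the levels.

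B-cadherin-like and cadherin-11-like were among the most abundant in the spleen by level per length, and cadherin-4-like was close to the limit of detection. B-cadherin-like had a mean of 125 FPKM (CPM divided by the exonic length in kilobases) over the 16 fish, above 98.2% of the tested genes. Cadherin-11-like had a mean of 56.4 FPKM, above 96.2% of them. Cadherin-4-like had a mean of 0.869 FPKM, above 9.36%. Among the 46 genes that could be named as cadherins or members of their superfamily they ranked 1, 2 and 14. All 3 had names only through the DEG lists of the study, and cadherins without a name are missing from this ranking. B-cadherin-like and cadherin-11-like together made 68.3 to 73.4% of the summed FPKM of these 46 genes in ACJ fish, 69.4 to 77.9% in ICJ fish, 67.9 to 73.1% in SBM fish and 67.4 to 70.5% in FM fish.

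**Figure D1:**
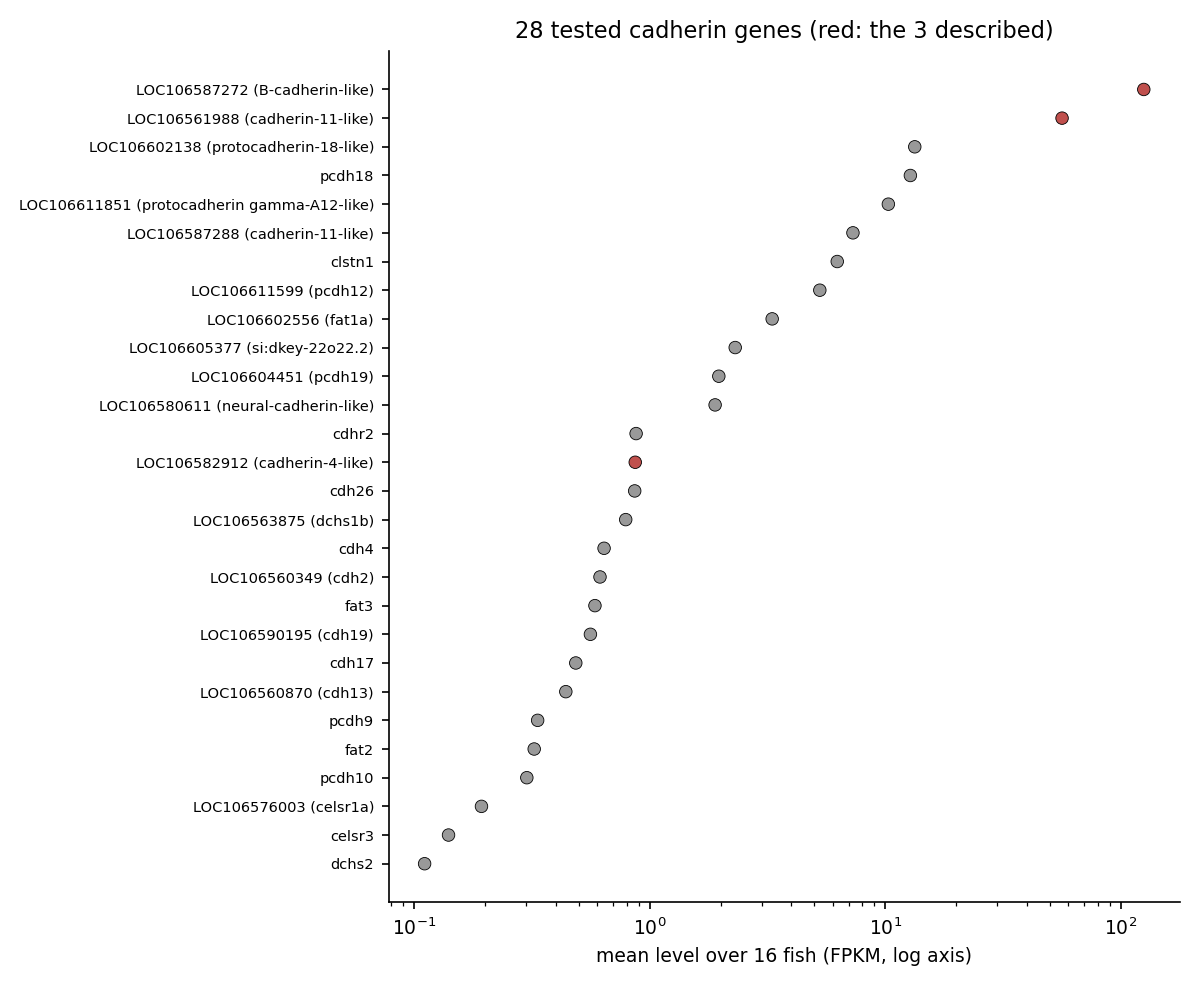
Mean level over 16 fish (FPKM, log axis) of the 28 tested genes named as cadherins, 1 point per gene, with the 3 genes described here in red. B-cadherin-like (125 FPKM) and cadherin-11-like (56.4 FPKM) lie to the right of all others, and the next gene is at 13.4 FPKM.

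B-cadherin-like was lowest in fish fed FM. In ACJ fish 1 to 4 it was at 460, 442, 486 and 364 CPM. In ICJ fish it was at 518, 600, 405 and 554.8 CPM. In SBM fish it was at 412, 451, 408 and 478 CPM, against 360, 308, 339 and 348 CPM in FM fish. All 12 fish fed soybean meal were above all 4 FM fish, although ACJ fish 4 (364 CPM) and FM fish 1 (360 CPM) nearly met. How many of the tested genes part the 12 fish from the 4 in this way was not counted. The SBM and FM fish are those on which the gene was selected, so nothing is read from the split. By mean the order was ICJ (519 ± 83.5), ACJ (438 ± 52.9), SBM (437 ± 33.2) and FM (339 ± 22.4 CPM, SD, n = 4 each). ICJ overlapped with ACJ and SBM through ICJ fish 3, and ACJ and SBM were interleaved.

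The largest difference of B-cadherin-like was that of ICJ over FM, with a log2 fold change of 0.62 (SE 0.11). It did not pass the threshold of an adjusted p of 0.05 (edgeR's quasi-likelihood test, Benjamini-Hochberg adjusted p = 0.105, unadjusted p = 1.81e-05), and only 4 of the 28930 genes had a smaller p in that comparison. With DESeq2 in place of edgeR, the adjusted p was 0.000248, but DESeq2 gave an adjusted p to only 8176 genes in this comparison. With no filter on low counts it was 0.0286. Without FM fish 1 it was 0.0408 and without ICJ fish 3 it was 0.00961, whereas in the other alternatives it was above 0.05 and reached 0.338. ACJ exceeded FM by 0.37 (SE 0.11, edgeR adjusted p = 0.128), and without ACJ fish 4 by 0.46 with an adjusted p of 0.04997, which passed the threshold. SBM exceeded FM by 0.37 (SE 0.11), the contrast on which the gene was chosen. Between the diets with soybean meal, the differences were 0.25 for ICJ over SBM (SE 0.11, edgeR adjusted p = 0.967), 0.00 for ACJ over SBM (SE 0.11, adjusted p = 0.998) and -0.25 for ACJ over ICJ (SE 0.11, adjusted p = 0.871). The 3 comparisons with FM share the same 4 FM fish, and FM is also one side of the contrast that chose the gene.

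Cadherin-11-like had another order and was highest in SBM fish. In ACJ fish 1 to 4 it was at 236, 240, 230 and 204 CPM. In ICJ fish it was at 223, 279, 221 and 213 CPM. In SBM fish it was at 288, 279, 275 and 270 CPM, against 238, 208, 252 and 237 CPM in FM fish. The SBM fish lay above all ACJ and all FM fish and above 3 of the 4 ICJ fish. ICJ fish 2 (279 CPM) lay within the SBM range. The means were 228 ± 16.3 CPM for ACJ, 234 ± 30.1 for ICJ, 278 ± 7.32 for SBM and 234 ± 18.3 for FM (SD, n = 4 each), so that SBM came first and ICJ, FM and ACJ followed without differing beyond their spread.

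SBM exceeded FM in cadherin-11-like by a log2 fold change of 0.25 (SE 0.08), which is the contrast that chose the gene. Against SBM, ACJ was lower by -0.29 (SE 0.08, edgeR adjusted p = 0.602, unadjusted p = 0.00307) and ICJ by -0.25 (SE 0.08, adjusted p = 0.967, unadjusted p = 0.00826). Neither passed the test across all genes. Both comparisons use the SBM fish on which the gene was selected. ICJ differed from FM by 0.00 (SE 0.08, edgeR adjusted p = 1.0) and ACJ from FM by -0.04 (SE 0.08, adjusted p = 0.886). ACJ differed from ICJ by -0.04 (SE 0.08, adjusted p = 0.98), and the sign of these small differences changed with the setting or the fish left out.

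Cadherin-4-like, the rarest of the 3, varied most between fish. ACJ fish 1 to 4 had 3, 6, 2 and 2 counts of it, and ICJ fish had 46, 62, 93 and 8 counts. SBM fish had 26, 33, 42 and 87 counts, against 30, 2, 2 and 16 counts in FM fish. All 4 ACJ fish were below all SBM and all ICJ fish, while FM fish spread over both ranges. Scaled to depth, this was 0.515 ± 0.272 CPM in ACJ fish, 7.56 ± 4.83 in ICJ fish, 5.93 ± 2.33 in SBM fish and 2.16 ± 2.39 in FM fish (SD, n = 4 each). Over the 16 fish the highest CPM was 46.4 times the lowest. The SD of its log2 CPM within diets was 1.13, above that of 98.2% of the tested genes, whereas it was 0.17 for B-cadherin-like and 0.12 for cadherin-11-like, with a median of 0.24 over all tested genes. At counts this low, counting error adds to the SD, and genes of a similar level were not compared.

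**Figure D2:**
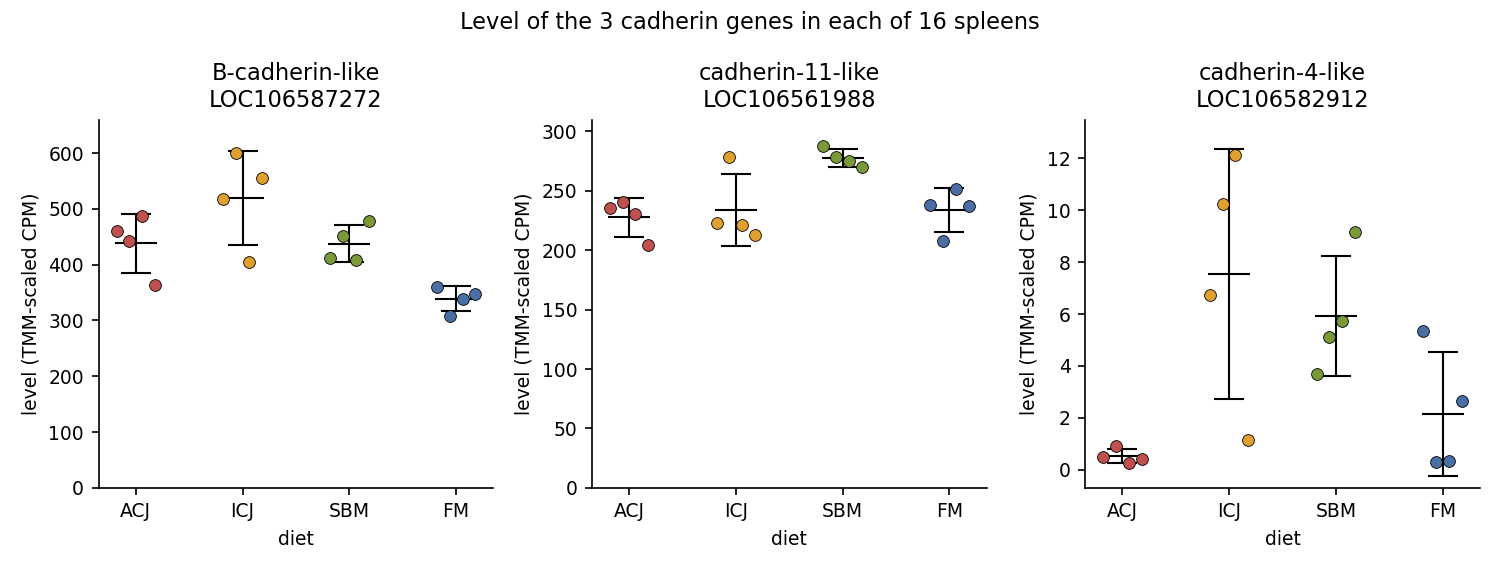
Level of each of the 3 genes (TMM-scaled CPM) in the 16 fish by diet, with 1 point per fish, a bar at the mean and whiskers for the SD of 4 fish. B-cadherin-like is lowest in the 4 FM fish (308 to 360 CPM), cadherin-11-like is highest in SBM fish (270 to 288 CPM), and cadherin-4-like is under 1 CPM in all ACJ fish and in 2 FM fish.

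With 13 counts in 26037570 for the ACJ fish together, against 209 in 27493551 for the ICJ fish, the ratio of ACJ to ICJ was 0.0657. This contrast chose the gene, and its fitted log2 fold change was -3.83 (SE 0.90). Against SBM, with 188 counts in 29199988, the pooled ratio of ACJ was 0.0776 (exact 95% interval 0.0405 to 0.136, for counting error only) and the fitted log2 fold change was -3.50 (SE 0.91). It did not pass the edgeR test over 16 fish (adjusted p = 0.602, unadjusted p = 0.00191). In this fit the gene passed the filter on low counts only through fish of the other diets, not through ACJ fish. In a fit of the 8 ACJ and SBM fish alone the edgeR adjusted p was 0.00814, but there the gene passed the filter on low counts only through the SBM fish, and its low ACJ values are those that chose it, so this p is no support for a difference. Under the other alternatives the adjusted p was between 0.13 (DESeq2) and 0.948 (without SBM fish 3). The ACJ fish in this comparison are those on which the gene was selected. Against FM, cadherin-4-like differed by 1.84 in ICJ (SE 0.73, edgeR adjusted p = 0.459), by 1.503 in SBM (SE 0.73, adjusted p = 0.367) and by -1.996 in ACJ (SE 1.03, adjusted p = 0.39). Single fish moved these values, which ran between 1.44 and 2.79 for ICJ, 1.11 and 2.46 for SBM and -2.42 and -1.03 for ACJ when 1 fish was left out. ICJ exceeded SBM by 0.33 (SE 0.64, adjusted p = 0.992). Counts of 3 or fewer in 5 fish, all of them fed ACJ or FM, leave a large counting error in the comparisons with those diets.

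**Figure D3:**
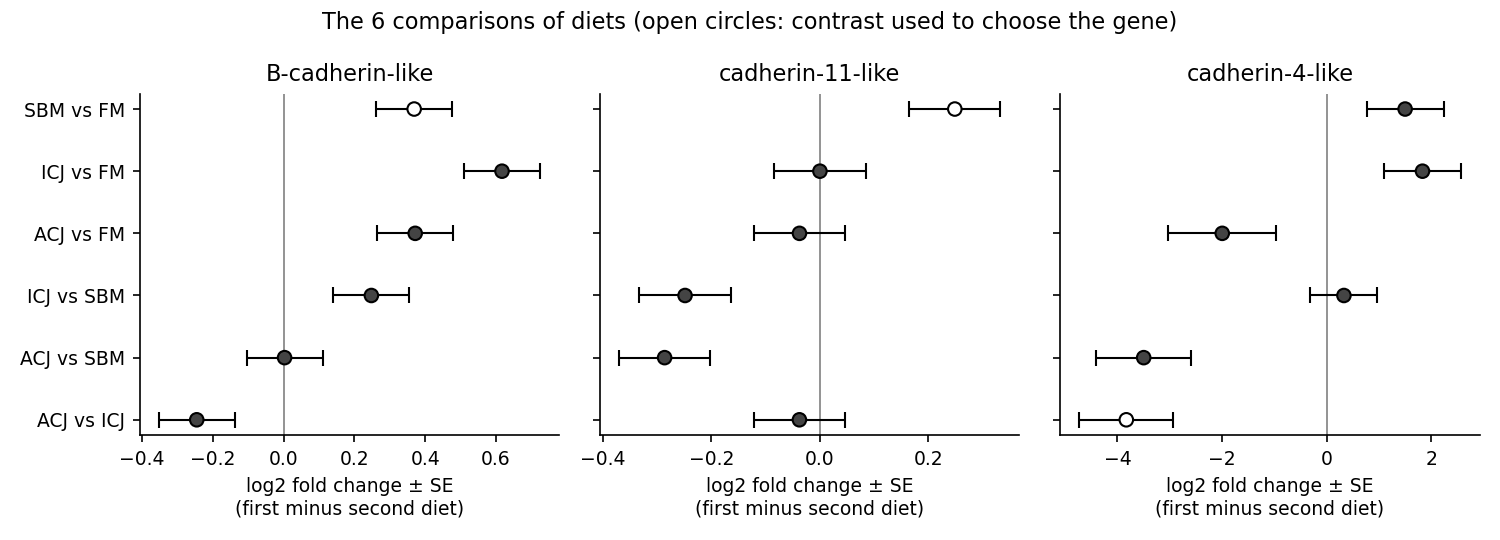
Log2 fold change (first minus second diet) with its SE from edgeR for the 3 genes in the 6 comparisons of diets, where an open circle marks the contrast on which the gene was chosen. The axes differ between panels, and the values run between -0.25 and 0.62 for B-cadherin-like, -0.29 and 0.25 for cadherin-11-like and -3.83 and 1.84 for cadherin-4-like.

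None of the 3 genes was called in any of the 6 comparisons at an edgeR adjusted p below 0.05. The share of all tested genes called was 0.432% for SBM against FM, 0.0104% for ICJ against FM and 0.235% for ACJ against FM. It was 0.0% for ICJ against SBM, 0.0% for ACJ against SBM and 0.0% for ACJ against ICJ. DESeq2 called 6, 5 and 5 genes in these last comparisons (0.0208%, 0.0173% and 0.0173% of the genes given an adjusted p), none of them among the 3. At an unadjusted p below 0.05, ICJ against FM held 2 of the 3 genes beside 9.26% of all tested genes, and ACJ against FM held 1 beside 14.9%. ICJ against SBM held 2 beside 5.0%, and ACJ against SBM held 2 beside 6.9%. The background was 14.7% in SBM against FM and 5.67% in ACJ against ICJ, from which nothing is read here because they chose the genes. Every other comparison shares fish with a contrast that chose these genes, so nothing is read from those counts either.

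By the measure of fish that did not overlap, B-cadherin-like and cadherin-11-like were higher in all 4 SBM fish than in all FM fish, as were 4.03% of the tested genes, from which nothing is read because this contrast chose both. B-cadherin-like was higher in all ICJ fish than in all FM fish, as were 2.72% of the genes, and higher in all ACJ fish, as were 3.49%. Cadherin-11-like and cadherin-4-like were lower in all ACJ fish than in all SBM fish, as were 2.15% of the genes. Cadherin-4-like was lower in all ACJ fish than in all ICJ fish, as were 1.7%, and this contrast likewise chose the gene. The other comparisons here share fish with the contrasts that chose the genes, so nothing is read from them either.

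The ratio of B-cadherin-like to cadherin-11-like within a fish does not depend on how libraries are scaled. In FPKM it was 2.43, 2.30, 2.63 and 2.22 in ACJ fish 1 to 4 and 2.90, 2.69, 2.28 and 3.26 in ICJ fish. It was 1.79, 2.02, 1.85 and 2.21 in SBM fish, against 1.89, 1.84, 1.68 and 1.83 in FM fish. All 8 fish fed yeast lay above all 8 fish fed no yeast, by a narrow margin between ACJ fish 4 (2.22) and SBM fish 4 (2.21). The means were 2.40 ± 0.181 for ACJ, 2.78 ± 0.407 for ICJ, 1.97 ± 0.187 for SBM and 1.81 ± 0.0883 for FM (SD, n = 4 each). The ratio was formed after the values of both genes were known, from genes selected on SBM against FM, and is given without a test. How many other pairs of genes part these fish in the same way was not counted.

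**Figure D4:**
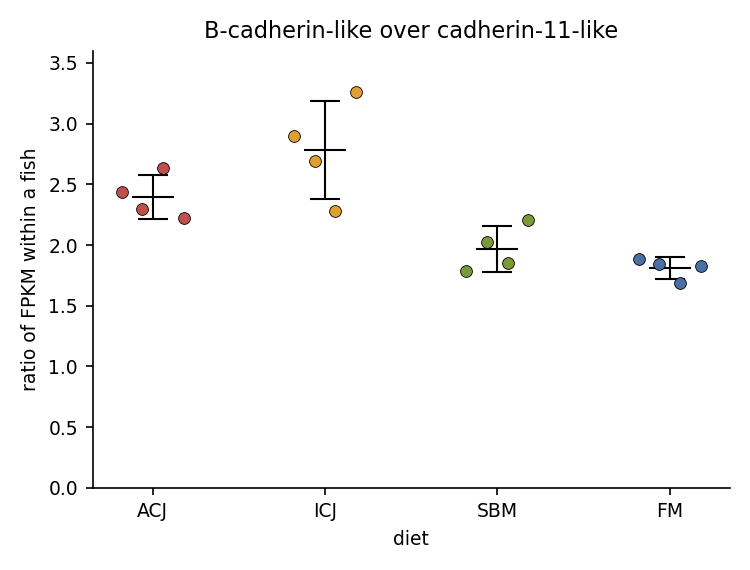
Ratio of the FPKM of B-cadherin-like to that of cadherin-11-like in each of 16 fish by diet, with 1 point per fish, a bar at the mean and whiskers for the SD of 4 fish. The ratio is 2.22 to 3.26 in ACJ and ICJ fish and 1.68 to 2.21 in SBM and FM fish.

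Cadherin-11-like and cadherin-4-like each had a second copy by name among the tested genes, and no other tested gene was named B-cadherin or cadherin-1. Whether these copies stem from a duplication was not tested. The second cadherin-11-like gene, LOC106587288, lies on chromosome 26 (14480075 to 14548822), the chromosome of B-cadherin-like, and had a mean of 7.30 FPKM. It was at 19.9, 21.9, 20.2 and 31.6 CPM in ACJ fish and at 29.2, 30.5, 30.4 and 17.96 CPM in ICJ fish. It was at 48.1, 32.4, 41.5 and 34.05 CPM in SBM fish, against 24.4, 27.99, 57.5 and 40.9 CPM in FM fish. As with the first copy, all ACJ fish were below all SBM fish, as was the case for 2.15% of the tested genes. The highest ACJ fish (31.6 CPM) and the lowest SBM fish (32.4 CPM) nearly met. The log2 fold change of ACJ against SBM was -0.75 here (SE 0.26, edgeR adjusted p = 0.711). All ICJ fish were below all SBM fish too (-0.53, SE 0.26, edgeR adjusted p = 0.967). The share of tested genes lower in this way in ICJ fish was not counted. Unlike the first copy, SBM and FM overlapped (0.05, SE 0.25, adjusted p = 0.957). This copy too stands in the lists made by the study from these fish.

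The second cadherin-4 gene, cdh4 on chromosome 13 (19685376 to 20188866), had a mean of 0.641 FPKM. It averaged 2.62 ± 0.843 CPM in ACJ fish, 3.09 ± 1.39 in ICJ fish, 2.45 ± 0.302 in SBM fish and 2.12 ± 0.753 in FM fish (SD, n = 4 each). All 4 diets overlapped, and ACJ differed from ICJ by a log2 fold change of -0.24 (SE 0.34, edgeR adjusted p = 0.956) and from SBM by 0.10 (SE 0.34, adjusted p = 0.97). The low values of cadherin-4-like in ACJ fish were thus not seen in this copy. The difference between the copies was not tested.

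**Figure D5:**
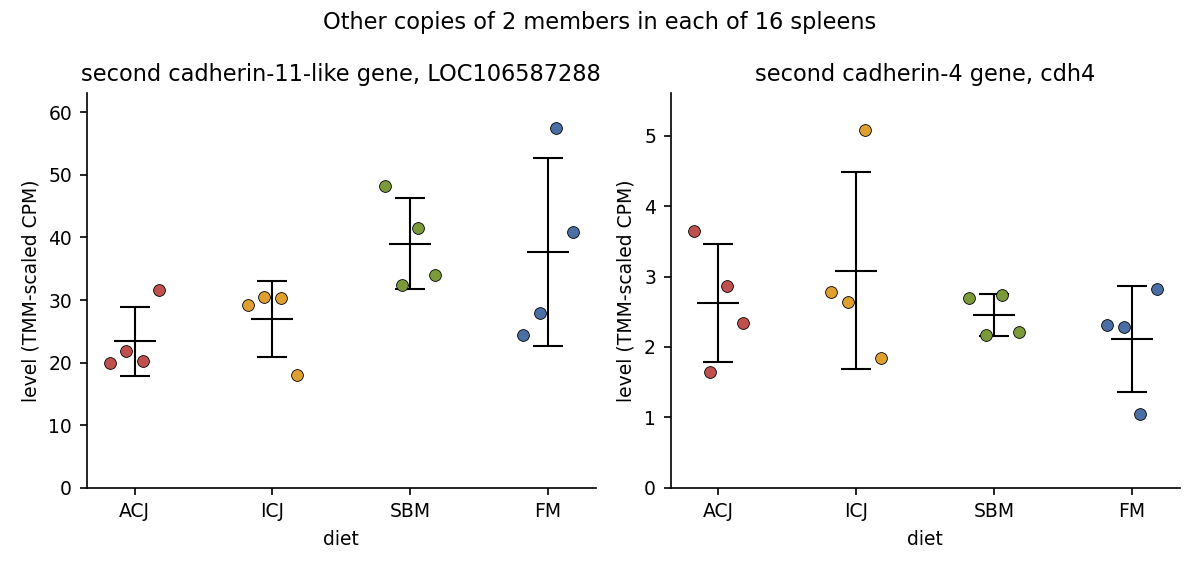
Level (TMM-scaled CPM) of the second cadherin-11-like gene and of cdh4 in each of 16 fish by diet, with 1 point per fish, a bar at the mean and whiskers for the SD of 4 fish. LOC106587288 is at 19.9 to 31.6 CPM in ACJ fish, 17.96 to 30.5 CPM in ICJ fish and 32.4 to 48.1 CPM in SBM fish. The gene cdh4 is at 1.05 to 5.08 CPM with all diets overlapping.

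Neighbouring genes named as cadherins were close to silent. Next to cadherin-11-like on chromosome 11, cdh8, a type II cadherin of nerve cells, had 1 count in all 16 fish together. Near B-cadherin-like on chromosome 26, cdh16, known in mammals from the kidney, had 28 counts in all. Neither passed the filter.

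The wider family was described through 46 named genes, of which 28 were tested and 2 had no counts. Of the 28, 1 rose in SBM against FM (0.432% of all tested genes were called) and in ACJ against FM (0.235%), and none changed in ICJ against FM or between diets with soybean meal (edgeR adjusted p below 0.05). DESeq2 called 6 of the 15 to which it gave an adjusted p in SBM against FM (3.5% of all such genes), 1 of 8 in ICJ against FM (1.22%), 1 of 14 in ACJ against FM (2.43%) and none of the 28 between diets with soybean meal. All genes so called stand in the DEG lists of the study. The gene called in ICJ against FM was B-cadherin-like. It was also 1 of the 6 in SBM against FM, the contrast that chose it. Nothing is read from these shares. In SBM against FM, 8 of the 28 were higher and 4 lower at an unadjusted p below 0.05 (14.7% of all tested genes passed it). In ICJ against FM 4 were higher and 1 lower (9.26% of all). It was 2 higher and 4 lower in ACJ against FM (14.9% of all) and 3 higher and 4 lower in ICJ against SBM (5.0% of all). It was 2 higher and 4 lower in ACJ against SBM (6.9% of all) and 1 higher and 3 lower in ACJ against ICJ (5.67% of all). Genes selected on these fish are among those counted. The median log2 fold change of the 28 was 0.21 in SBM against FM, 0.07 in ICJ against FM and 0.10 in ACJ against FM, beside medians of all tested genes of -0.01, 0.00 and 0.00. Of the 46 genes, 10 stand in the DEG lists of the study, which were made from these fish, and 8 of them could be named only through those lists. Of the other 18 tested, none was called in any comparison by edgeR. DESeq2 called none of them either, but gave an adjusted p to only part of them in the comparisons with FM. At an unadjusted p below 0.05, 3 of these 18 were higher and 1 lower in SBM against FM, and 0 passed in ICJ against FM. In ACJ against FM 1 was lower, and in ICJ against SBM 1 was higher and 1 lower. In ACJ against SBM 1 was higher, and in ACJ against ICJ 1 was lower.

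The gene that rose was LOC106611851 (protocadherin gamma-A12-like), whose mammalian relatives are clustered protocadherins of nerve cells, on chromosome 9 (66727801 to 66838107). It was at 107, 104, 105 and 92.7 CPM in ACJ fish and at 86.7, 96.8, 91.5 and 81.4 CPM in ICJ fish. It was at 106, 107, 105 and 106 CPM in SBM fish, against 87.9, 65.7, 76.8 and 69.1 CPM in FM fish. ACJ and SBM fish all exceeded the FM fish, by a log2 fold change of 0.45 (SE 0.08, edgeR adjusted p = 0.0354) and 0.51 (SE 0.08, adjusted p = 0.0206), while ICJ fish overlapped with FM fish (0.25, SE 0.08, adjusted p = 0.346). Higher without overlap than FM were 3.49% of the tested genes in ACJ fish and 4.03% in SBM fish. LOC106611851 was in the DEG lists of the study.

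The other genes that could be named as cadherins were much lower per length. The protocadherins LOC106602138 (protocadherin-18-like) and pcdh18 had means of 13.4 and 12.8 FPKM, and pcdh12 (LOC106611599), known from mammalian endothelium, 5.28 FPKM. Against FM, SBM differed by a log2 fold change of 0.55 in LOC106602138, 0.51 in pcdh18 and 0.43 in pcdh12, none past the edgeR threshold. The 2 neural-cadherin-like genes LOC106605377 and LOC106580611, at 2.31 and 1.90 FPKM, differed by -0.69 and -0.66 in the same comparison, likewise not past it. DESeq2 called both protocadherin-18 genes and both neural-cadherin-like genes in SBM against FM, and all 4 stand in the lists of the study. The remaining named type I cadherin, cdh2 (LOC106560349), which is N-cadherin in mammals, was at 0.616 FPKM. The type II cadherin cdh19 (LOC106590195) was at 0.561 FPKM. Of the atypical cadherins, the calsyntenin clstn1 was at 6.26 FPKM, fat1a (LOC106602556) at 3.31, cdhr2 at 0.876 and cdh26 at 0.864.

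Some partners of cadherins inside the cell were abundant, and the first ones named here were chosen as the highest of their lists. The catenin ctnnb1, beta-catenin, which binds the cadherin tail and also carries Wnt signals, had a mean of 171 FPKM, ctnna1 (alpha-catenin, the connection to actin) 28.6 FPKM, pkp3_1 (a plakophilin) 30.9 FPKM and arvcf (of the p120 group that keeps cadherins at the membrane) 14.4 FPKM. The other tested catenins were lower, with ctnna2 at 3.83 FPKM, pkp4 at 1.53 and pkp3 at 0.373. The actin cross-linker actn4 was at 94.1 FPKM, and 4 features named actn1 were at 10.4 to 63.9 FPKM. Of 31 named catenins, nectins, actinins and cadherin-cleaving enzymes, 23 were tested and 1 was called in SBM against FM, where 0.432% of all tested genes were. This was adam10, the protease that in mammals sheds E- and N-cadherin, which fell in SBM fish. It was at 109, 95.3, 102 and 91.8 CPM in SBM fish, against 119, 129, 143 and 128 CPM in FM fish, without overlap (log2 fold change -0.38, SE 0.08, edgeR adjusted p = 0.0453). How many of all tested genes were lower in SBM fish without overlap was not counted. ACJ differed from FM in adam10 by -0.34 (SE 0.08, adjusted p = 0.0744) and ICJ by -0.12 (SE 0.08, adjusted p = 0.679). Its copy LOC106587342 had 24.8 FPKM and mmp14b (LOC106600280) 18.9 FPKM. The gene mmp9 had 122.8 FPKM in ACJ fish 4 and 5.86 to 24.6 FPKM in the other 15 fish. Both adam10 genes were in the lists of the study. In SBM against FM, DESeq2 called adam10 and nectin3a (LOC106581204) among 21 given an adjusted p, beside 3.5% of all such genes. Like the adam10 genes, nectin3a stands in the lists of the study. DESeq2 also called adam10, as lower, in ACJ against FM, as 1 of 21 given an adjusted p, beside 2.43% of all such genes. The median log2 fold change of the 23 genes was 0.17 in SBM, 0.15 in ICJ and 0.18 in ACJ against FM, and between diets with soybean meal it was -0.04 for ICJ over SBM, 0.00 for ACJ over SBM and 0.00 for ACJ over ICJ.

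The summed levels of cell type markers are given by diet, and their part in the cadherin levels was not tested. Of the endothelial genes edgeR called 1, as higher in SBM against FM, where 0.432% of all tested genes were called. It called none of the erythroid, fibroblast and stromal or smooth muscle genes in any comparison. The summed level of 6 endothelial genes, led by stab1 and stab2, was 770 to 842 CPM in ACJ fish, 668 to 840 in ICJ fish and 800 to 968 in SBM fish, against 513 to 738 in FM fish. The sum lay above FM in all ACJ and SBM fish and overlapped with FM in ICJ fish. How many other sums of genes part these fish in the same way was not counted. Of the 6 genes, 3 (stab1, stab2 and tek) stand in the DEG lists of the study. Against FM, the median log2 fold change of these 3 was 0.52 in SBM, 0.36 in ICJ and 0.45 in ACJ. For the other 3 genes it was 0.098 in SBM, -0.004 in ICJ and 0.146 in ACJ. The sum of 10 fibroblast and stromal genes, led by col1a1b and col1a2, was 3170 to 4476 CPM in ACJ fish, 2352 to 3321 in ICJ fish, 3266 to 3674 in SBM fish and 2102 to 3620 in FM fish. ACJ and SBM fish overlapped in this sum, most of which came from col1a1b and col1a2. Of its 10 genes, 4 stand in the DEG lists of the study. The sum of 26 erythroid genes, of which hbae and rhcg were at 0, was 37520 to 42120 CPM in ACJ fish, 15410 to 66830 in ICJ fish, 16270 to 28910 in SBM fish and 37980 to 76530 in FM fish. Of these 26 genes, 21 stand in the DEG lists of the study, made from the same fish. Their median log2 fold change against FM was -1.25 in SBM, -0.455 in ICJ and -0.523 in ACJ. For the 2 tested genes outside the lists it was -0.855 in SBM, -0.403 in ICJ and -0.443 in ACJ, and neither reached an unadjusted edgeR p below 0.05. Smooth muscle (2 genes, led by acta2) summed to 418 to 586 CPM in ACJ fish, 397 to 604 in ICJ fish, 402 to 527 in SBM fish and 271 to 487 in FM fish. Epithelial markers were near 0, with epcam at 0.155 to 2.12 CPM and cldn7 at 0 in all fish, beside 308 to 600 CPM of B-cadherin-like. The 4 neural and glial genes, led by elavl3, summed to 2.12 to 5.44 CPM over the 16 fish.

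Leukocyte genes (6, led by ptprc and a macrophage colony-stimulating factor 1 receptor) summed to 2059 to 2319 CPM in ACJ fish, 2343 to 2519 in ICJ fish, 2223 to 2419 in SBM fish and 2110 to 2539 in FM fish. Of these 6 genes, 2 stand in the DEG lists of the study. Genes of the exocrine pancreas, a diffuse organ in salmon, gave 176 to 2778 CPM in ACJ fish, 42.1 to 1803 in ICJ fish, 0.142 to 1194 in SBM fish and 382 to 2991 in FM fish from 2 genes, nearly all of it ctrl. The 2 endocrine genes, gcg and sst5, gave 1.70 to 112 CPM in ACJ fish, 0.141 to 149 in ICJ fish, 0.283 to 44.3 in SBM fish and 0.428 to 110 in FM fish. The median of the exocrine list was 2141 CPM in ACJ fish, 612 in ICJ fish, 173 in SBM fish and 1062 in FM fish. The median of cadherin-4-like was 0.45 CPM in ACJ fish, 8.48 in ICJ fish, 5.44 in SBM fish and 1.505 in FM fish. A link between the exocrine list and cadherin-4-like was not tested.

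The genes whose log2 CPM was most like that of each member over the 16 fish were taken from the 26531 tested genes whose log2 CPM averaged 1 or more, as a description in which the fish share libraries and diets. For B-cadherin-like these were LOC106604846 (r = 0.89), me3 (LOC106581960, a malic enzyme, r = 0.88), LOC106567669 (r = 0.88), LOC106563704 (cytokine receptor common subunit gamma-like, a receptor chain of lymphocytes, r = 0.88) and LOC100194579 (r = 0.88). The level of LOC106563704 was 48.8 to 55.9 CPM in ACJ fish, 50.9 to 58.3 in ICJ fish and 49.5 to 54.1 in SBM fish, against 33.8 to 41.8 in FM fish. Higher without overlap than FM were 3.49% of the tested genes in ACJ fish, 2.72% in ICJ fish and 4.03% in SBM fish. LOC106563704 stands in the DEG lists of the study. It was picked for likeness to a gene chosen on SBM against FM, so nothing is read from its split. For cadherin-11-like they were peak1 (a kinase-like protein of the cytoskeleton, r = 0.88), LOC106609411 (r = 0.88), LOC106573206 (r = 0.86), LOC106576214 (USP6 N-terminal-like protein, r = 0.86) and prf1.5 (LOC106585834, a perforin gene, r = 0.86). For cadherin-4-like they were LOC106612671 (r = 0.84), kctd6 (r = 0.83), LOC106563041 (r = 0.83), LOC106590915 (r = 0.82) and cssa14h5orf22 (r = 0.81). With deviations from the diet means in place of the levels, the r of these 15 genes was 0.68 to 0.81, and none of them was among the 5 most alike by that measure. The members were less like each other. Over the 16 fish, r was 0.25 between B-cadherin-like and cadherin-11-like, 0.34 between B-cadherin-like and cadherin-4-like, and 0.51 between cadherin-11-like and cadherin-4-like.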

How the data were processed

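Per the paper's methods, BBDuk trimmed the reads, HISAT (listed as HISAT2 2.1.0 in the submitters' processing notes) placed them on the ICSASG_v2 assembly, and featureCounts (1.4.6-p1 in those notes, 1.5.1 in the table headers) counted fragments per gene. The deposited values are these raw counts, 79141 features in each of 16 fish, which the authors did not normalise. All headers name lane 5. The strand was used, and fragments with several matches were left out.

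From the counts, genes were filtered by filterByExpr, scaled by TMM and fitted in edgeR 4.0.16 (R 4.3.3) with a mean per diet over all 16 fish. The 6 comparisons were tested with glmQLFTest, with Benjamini-Hochberg adjustment over 28930 genes and a threshold of 0.05. The SE is the log2 fold change over the square root of F. Log2 CPM used a prior count of 2, and FPKM is CPM per kilobase of exonic length. The fit was tested on simulated data. The alternatives were DESeq2 1.42.0, RLE scaling, no filter, a replicate block, the 8 fish compared alone, removal of hemoglobin genes, and each fish left out. P-values set the difference between diet means against the spread between fish of a diet. Tank is not in the model, so they do not cover the spread between tanks.

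The 3 genes, the lists and the tests were chosen with earlier results of these data known. Named were the members, their tested copies, called genes, the 4 with the highest FPKM in each list, the 5 most like each member, and the 2 highest genes of each marker list (a few further genes were named after their values were seen). Of 47181 features named only by a LOC number, 4859 had a symbol in RefSeq's Ssal_v3.1 table and 825 a name in the study's gene lists, so family lists are incomplete. No coordinates of that assembly were used, and sequences are not shown here.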

Additional observations from a re-analysis of the deposited data

Results flagged for a closer look

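In the second cadherin-11-like gene, LOC106587288, the lowest ICJ fish (fish 4, 17.96 CPM) stood apart from the other 3 (29.2 to 30.5 CPM), with a gap of 0.914 of the range of the diet on the log2 scale, above Dixon's critical value for 4 fish. Of 7 genes in 4 diets looked at in this way, this was the only such gap, and chance alone gives about 1 in 20 groups. None of the 3 members had a fish that far from its diet.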

How the results depend on the processing

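Among the 3 genes, the log2 fold change of B-cadherin-like in ICJ against FM passed the threshold in DESeq2 (0.6127) and with no filter (0.6188), and its values without 1 fish ran from 0.5411 to 0.7203. In ACJ against FM they ran from 0.3178 to 0.4618, and the highest, without ACJ fish 4, passed the threshold. Cadherin-4-like in ACJ against SBM passed it when only the 8 fish compared were fitted (-3.4997), where it passed the filter only through the SBM fish. In the 8 fish of ACJ and FM and in those of ACJ and ICJ it could not be fitted, since it did not pass the filter there. The sign changed only for differences near 0. Cadherin-11-like in ICJ against FM was -0.0043 with DESeq2, -0.0041 with RLE scaling, -0.0051 with the replicate block, -0.0038 with hemoglobin genes removed, -0.005 in the 8 fish, and -0.094 to 0.0437 without 1 fish. Without 1 fish it was -0.0901 to 0.022 in ACJ against FM and -0.0816 to 0.056 in ACJ against ICJ. B-cadherin-like in ACJ against SBM was -0.0038 with no filter, -0.0017 with hemoglobin genes removed and -0.0515 to 0.0921 without 1 fish. Cadherin-4-like in ICJ against SBM was -0.0027 to 0.6939 without 1 fish. Every other sign of the 3 genes was kept in all alternatives run.

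The number of genes called moved more. In SBM against FM it was 125, with 737 in DESeq2, 38 in the 8 fish compared and 5 to 670 without 1 fish (670 without FM fish 1). In ICJ against FM it was 3, with 100 in DESeq2, 5 with no filter, 0 in the 8 fish, 0 with the replicate block and 0 to 37 without 1 fish. In ACJ against FM it was 68, with 472 in DESeq2, 127 with no filter, 4 in the 8 fish, 39 with the replicate block and 2 to 550 without 1 fish. Between diets with soybean meal it was 0, with 6 (ICJ against SBM), 5 (ACJ against SBM) and 5 (ACJ against ICJ) in DESeq2, 0, 8 and 2 in the 8 fish, and 0 to 1 without 1 fish in ICJ against SBM and in ACJ against ICJ. DESeq2 called 6 cadherin genes in SBM against FM, 1 in ICJ against FM and 1 in ACJ against FM. Of the partner and enzyme genes it called 2 in SBM against FM and 1, adam10, in ACJ against FM. All of these cadherin, partner and enzyme genes stand in the DEG lists of the study. Same-numbered fish are different animals, and their deviations correlated by -0.21 to -0.03 in SBM against FM, so the replicate block pairs numbers only. Depth limits cadherin-4-like, at 3 or fewer counts in 5 fish.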
